A study of Mus musculus with 30 samples.

Results

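The urea cycle genes were the 8 genes whose products carry ammonia nitrogen into urea: Nags, Cps1, Otc, Slc25a15, Slc25a13, Ass1, Asl and Arg1. They were chosen by gene symbol from the table of 55450 genes, and all 8 had counts high enough to be tested in each comparison. Liver mRNA of male mice had been sequenced, 1 library a mouse and 30 in all. Each of the 3 experiments set 5 Cebpa fl/fl mice (labelled Cre-) beside 5 knockout mice (labelled Cre+). In HFCFD2W the knockout mice were Cebpa ΔHep, with constitutive albumin-Cre, and both genotypes ate HFCFD, a diet rich in fat, cholesterol and fructose that promotes steatohepatitis, for 2 weeks. In HFCFD8W+T10D the knockout mice were Cebpa ΔHep,ERT2, in which the albumin promoter drives a tamoxifen-activated Cre, and both genotypes ate the diet for 8 weeks with tamoxifen for the last 10 days. In HFCFD12W+T10W both genotypes of the same inducible line ate the diet for 22 weeks with tamoxifen for the last 10 weeks. Every mouse carried the floxed Cebpa alleles on a C57BL/6N background, the Cre- mice without Cre, and ages were not given in the sources used here. The design text calls the experiments batches of mice. HFCFD2W differed from the other two in Cre line, diet time, tamoxifen and batch of mice, and HFCFD8W+T10D differed from HFCFD12W+T10W in diet time, tamoxifen time and batch of mice. Within each of these comparisons such differences cannot be told apart.

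The urea cycle disposes of the ammonia released when amino acids are broken down, and in mammals the whole cycle runs in hepatocytes, most strongly in the periportal zone of the lobule. Its first steps are mitochondrial. NAGS makes N-acetylglutamate, the obligatory activator of CPS1, which joins ammonia and bicarbonate into carbamoyl phosphate, and OTC transfers that group to ornithine to give citrulline. SLC25A15 exchanges ornithine and citrulline across the inner mitochondrial membrane, and SLC25A13, the aspartate-glutamate carrier called citrin, exports the aspartate that supplies the cycle's other nitrogen. In the cytosol ASS1 joins citrulline and aspartate, ASL splits the product into arginine and fumarate, and ARG1 cleaves arginine into urea and ornithine. CEBPA is a hepatocyte transcription factor known to take part in the expression of urea cycle enzymes.

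On GRCm38, by the GENCODE M21 annotation, Nags (ENSMUSG00000048217.11) lies at chr11:102145513-102149477 on the plus strand, Cps1 (ENSMUSG00000025991.8) at chr1:67123026-67231259 on the plus strand and Otc (ENSMUSG00000031173.13) at chrX:10252305-10321024 on the plus strand. Slc25a15 (ENSMUSG00000031482.9) lies at chr8:22375551-22398597 and Slc25a13 (ENSMUSG00000015112.15) at chr6:6041218-6217173, both on the minus strand. Ass1 (ENSMUSG00000076441.9) lies at chr2:31470207-31520672 on the plus strand, Asl (ENSMUSG00000025533.15) at chr5:130011258-130029247 on the minus strand and Arg1 (ENSMUSG00000019987.9) at chr10:24915221-24927484 on the minus strand. The counts are of whole genes, exons of all annotated transcripts together. Nags overlaps an antisense gene, Gm11586, on the opposite strand, which had at most 8 counts in any library of this stranded protocol. Ass1 shares sequence with the gene Gm5424, and its counts were the only member counts that were not whole numbers, as happens where reads are divided between genes. Gm5424 took between 3.397% and 3.541% of the counts of the pair in the 6 groups.

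Promoter sequences from RefSeq (GRCm38.p6) were on hand for 5 of the 8 genes: Nags, Otc, Ass1, Slc25a15 and Slc25a13. The 250 bases upstream of the start are shown for 3 of them: Nags, called lower in the knockout in each experiment (below), Otc, higher in one experiment and lower in another, and Slc25a13, which held the one motif match. Capitals mark CCAAT.
Nags, chr11:102145263-102145512, plus strand: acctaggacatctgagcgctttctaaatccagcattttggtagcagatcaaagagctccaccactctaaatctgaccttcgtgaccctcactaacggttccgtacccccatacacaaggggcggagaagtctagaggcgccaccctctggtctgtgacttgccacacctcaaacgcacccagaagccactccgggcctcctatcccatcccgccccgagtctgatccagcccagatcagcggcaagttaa
Otc, chrX:10252055-10252304, plus strand: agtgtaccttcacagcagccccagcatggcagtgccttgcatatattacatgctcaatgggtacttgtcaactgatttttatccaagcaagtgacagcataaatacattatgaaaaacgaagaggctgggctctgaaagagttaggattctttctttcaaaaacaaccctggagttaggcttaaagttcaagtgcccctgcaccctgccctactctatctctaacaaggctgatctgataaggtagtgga
Slc25a13, chr6:6217174-6217423, minus strand: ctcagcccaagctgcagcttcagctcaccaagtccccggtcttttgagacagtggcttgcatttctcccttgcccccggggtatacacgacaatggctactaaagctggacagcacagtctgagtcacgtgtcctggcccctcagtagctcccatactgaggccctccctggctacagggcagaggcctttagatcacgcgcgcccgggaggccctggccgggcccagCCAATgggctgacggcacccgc
These windows were searched on both strands for TTGCGCAA, a palindrome of the C/EBP type, for TTGCNNAA, which every TTGCGCAA also matches, and for CCAAT, TGACGTCA and TATAAA. The single match among the members' windows was CCAAT in Slc25a13, 18 to 22 bases upstream of the start. Of all 32851 windows of this length in the table, 0.164% held TTGCGCAA, 9.56% TTGCNNAA, 33.8% CCAAT, 1.55% TGACGTCA and 12.4% TATAAA.

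The targeted gene followed the labels. Cebpa stood at 149.3 to 193.4 CPM (library-scaled counts, by TMM over the 30 libraries) in the Cre- mice of HFCFD2W and at 3.431 to 5.676 CPM in the Cebpa ΔHep mice. It stood at 121.3 to 156.1 against 11.11 to 25.09 CPM in HFCFD8W+T10D and at 82.48 to 135.3 against 18.7 to 23.83 CPM in HFCFD12W+T10W. Library totals ran from 7996123 to 10257347 counts. The 8 urea cycle genes together held a median of 0.879% of a library's counts in Cre- and 0.916% in knockout livers of HFCFD2W. For HFCFD8W+T10D these medians were 0.901% and 0.664%, for HFCFD12W+T10W 0.953% and 0.639%.

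Per transcript length, the 8 mRNAs kept nearly the same order in the 6 groups. On the TPM scale (a length-adjusted share of each library's transcripts, as RSEM wrote it), Ass1 was first in each group, with group means of 2055 to 2644 TPM. Nags, the enzyme of the activator, was last in each group, at 19.5 to 31.8 TPM. Between them, in the Cre- mice of HFCFD2W, stood Cps1 at 741.9 ± 88.5 TPM (SD, n = 5), Arg1 at 671.5 ± 72.8, Asl at 277 ± 18.2 and Otc at 227.6 ± 19.6. There the carriers had 92.4 ± 7.34 TPM for Slc25a13 and 91.1 ± 4.62 TPM for Slc25a15. The neighbours Cps1 and Arg1, and the 2 carriers, were within 1 SD of each other in that group. In the Cebpa ΔHep,ERT2 mice of HFCFD8W+T10D, Cps1 stood in the fourth place rather than the second of its controls, at 323.5 ± 54.8 TPM, below Arg1 at 594.3 ± 139.2 and Asl at 398.2 ± 42.5. In those of HFCFD12W+T10W, Cps1 at 375.4 ± 71.3 TPM stood below Arg1 at 529.9 ± 54.4 and above Asl at 251.7 ± 36.6, the same place as in their controls.

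**Figure D1:**
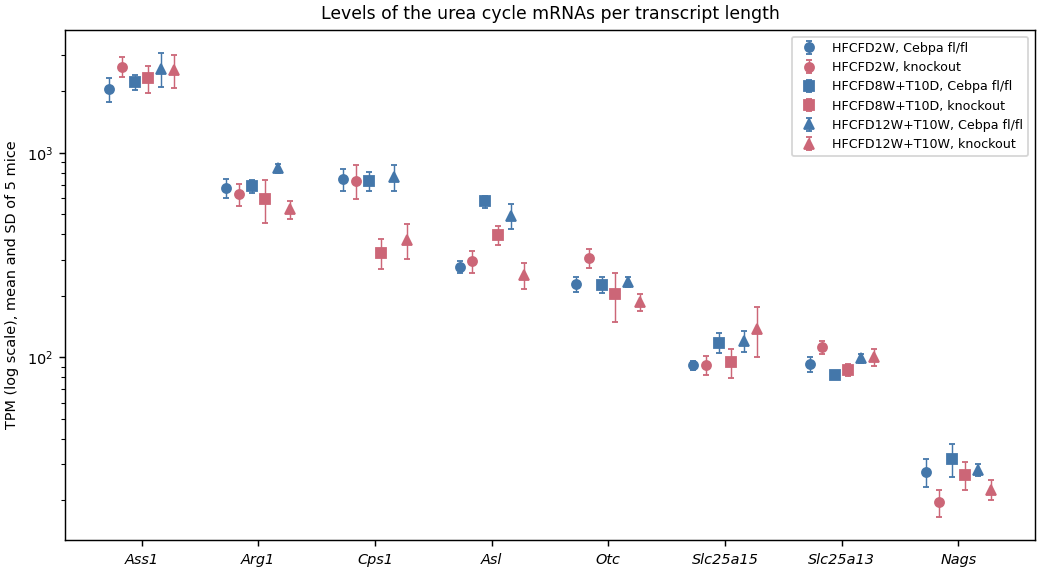
Level of each urea cycle mRNA in TPM (vertical axis, log scale) for the 6 groups, ordered by mean level from left to right; points are means of 5 mice and bars the SD, blue for Cebpa fl/fl and red for knockout. Ass1 lies above 2000 TPM in each group and Nags below 32 TPM.

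The question within each experiment was how mRNA levels differ when hepatocytes lack CEBPA. The answer for the cycle differed with the experiment. With constitutive loss and 2 weeks of diet, 1 of the 8 genes was called higher (Otc) and 1 lower (Nags) at an adjusted p under 0.05, where 8.6% of all tested genes were called higher and 8.09% lower. After 10 days of tamoxifen, 5 were called lower (Cps1, Asl, Arg1, Nags, Slc25a15) and 0 higher by edgeR, against 6.85% of all genes called lower and 10.3% higher. The same 5 had an unadjusted p under 0.05, and DESeq2 too called 0 higher. After 10 weeks of tamoxifen, 6 were called lower (Cps1, Otc, Asl, Arg1, Nags, Slc25a13) and 0 higher by both tools (DESeq2 called 7 lower), with 7 at an unadjusted p under 0.05, against 23.8% of all genes called lower and 27.4% higher. The median log2 fold change of the 8 genes was -0.08, -0.43 and -0.69 in the 3 experiments in that order, and the median over all genes tested was between 0.007 and 0.013. With a fold change over 2 asked for as well, 0, 1 and 3 of the 8 genes were lower, against 1.38%, 2.01% and 3.47% of all genes.

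**Figure D2:**
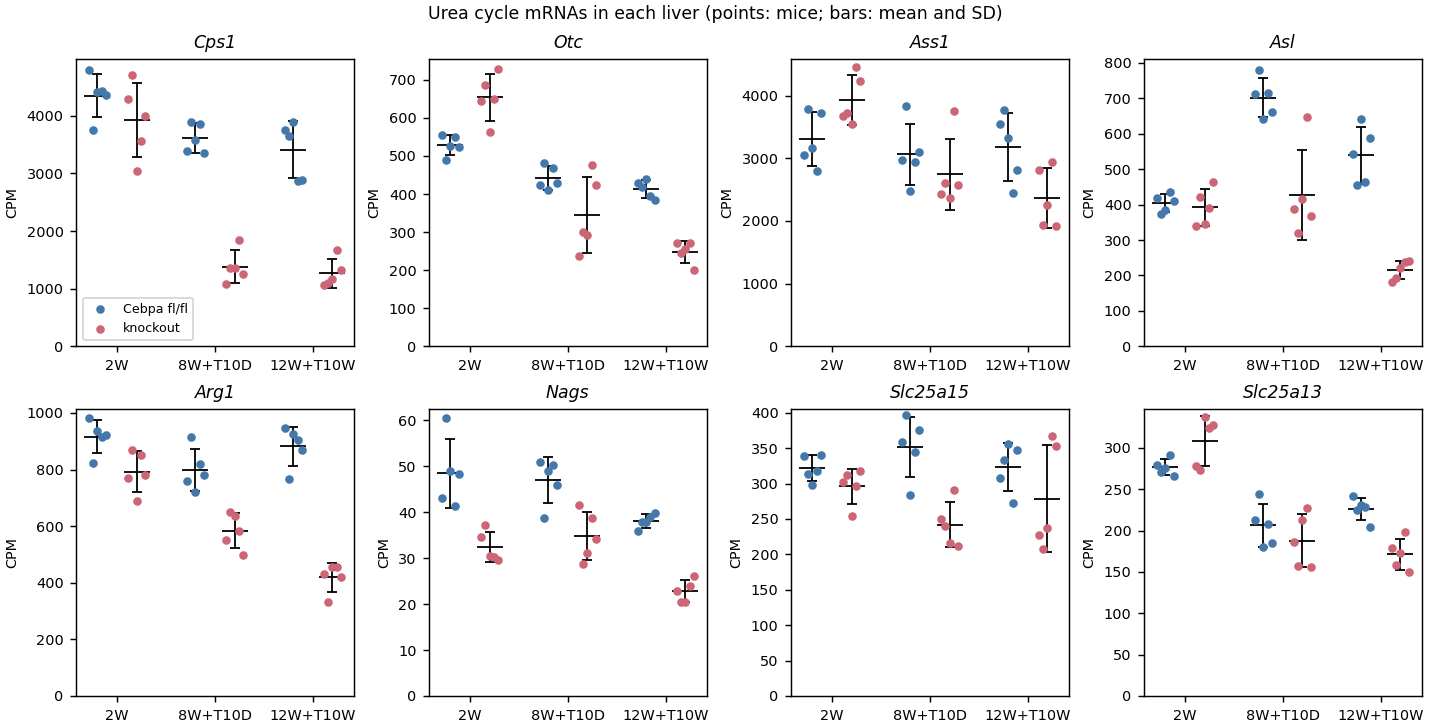
TMM-scaled CPM of each urea cycle gene in each mouse (points; blue Cebpa fl/fl, red knockout) in HFCFD2W, HFCFD8W+T10D and HFCFD12W+T10W, with the mean and SD of each group of 5 in black; each vertical axis starts at 0. Cps1 separates the genotypes in both tamoxifen experiments, at 1090 to 1848 and 1068 to 1666 CPM in the knockouts, while the genotypes overlap in HFCFD2W.

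Those sizes depend on how libraries are put on one scale. CPM by TMM centres the bulk of genes, whereas TPM is a share of all transcripts in a library. On the TPM scale the median log2 fold change of all genes moved to 0.096, 0.175 and 0.315 in the 3 experiments in time order, and with libraries scaled to 15 hepatocyte mRNAs it moved to -0.03, 0.295 and 0.499. In each experiment and under both scalings, the log2 fold change of each of the 8 genes moved in the same direction as this median. The TPM values were also tested with another tool (limma), so that setting changed the test as well. Of the 15 hepatocyte mRNAs, 2, 2 and 8 were themselves called lower in the knockouts and 1, 1 and 0 higher with TMM. Scaling to them can therefore also remove a genotype difference that they share with the members. Cps1 and Asl in both tamoxifen experiments and Arg1 in HFCFD12W+T10W stayed lower and called under both of these scalings. Arg1, Nags and Slc25a15 lost their calls in HFCFD8W+T10D under both, and Otc in HFCFD2W and Otc and Nags in HFCFD12W+T10W lost theirs with hepatocyte scaling. The signs of Ass1 and Slc25a13 in both tamoxifen experiments, and of Slc25a15 in HFCFD12W+T10W, did not hold under at least 1 of them. Summed over the 8 genes, Cre- and knockout livers held 9221 ± 846 and 5944 ± 1087 CPM (SD, n = 5) in HFCFD8W+T10D but 4678 ± 290 and 4051 ± 539 TPM. In HFCFD12W+T10W the sums were 9012 ± 1058 and 4990 ± 740 CPM but 5155 ± 593 and 4150 ± 561 TPM.

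**Figure D3:**
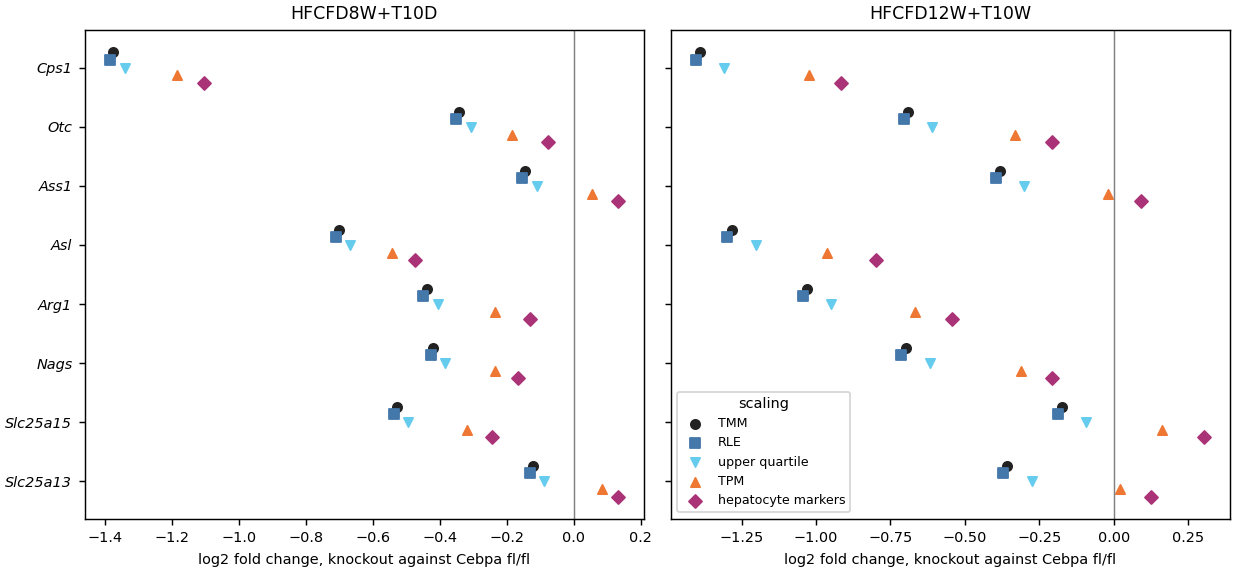
Log2 fold change of each urea cycle gene, knockout against Cebpa fl/fl (horizontal axis), in HFCFD8W+T10D (left) and HFCFD12W+T10W (right) under 5 scalings: TMM, RLE size factors, upper quartile, log2(TPM + 1) and scaling to hepatocyte markers. Cps1 is at -1.37 with TMM and -1.10 with hepatocyte scaling on the left, and at -1.39 and -0.92 on the right, while Slc25a13 crosses 0 on both sides.

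Cps1, the entry enzyme of the cycle, showed the lowest log2 fold change of the 8 in both tamoxifen experiments. In HFCFD2W the Cre- mice had 4793, 3750, 4411, 4428 and 4364 CPM and the Cebpa ΔHep mice 4287, 4707, 3048, 3556 and 4003 CPM, so the groups overlapped. The log2 fold change there was -0.15 ± 0.12 (SE), with an adjusted p of 0.426 in edgeR's quasi-likelihood test and a 95% interval from -0.38 to 0.08. In HFCFD8W+T10D the Cre- mice had 3384, 3898, 3578, 3858 and 3349 CPM and the knockouts 1090, 1351, 1355, 1848 and 1261 CPM. Each knockout was below each control, and the level was 38.6% of the control level (log2 fold change -1.37 ± 0.16, adjusted p = 0.000156). In HFCFD12W+T10W the Cre- mice had 3752, 3650, 3888, 2865 and 2891 CPM and the knockouts 1068, 1104, 1160, 1666 and 1323 CPM. The groups again did not overlap, at 38.2% of the control level (log2 fold change -1.39 ± 0.14, adjusted p = 5.98e-06). For single genes the exact two-sided permutation test over the 252 arrangements of 10 mice gave p = 0.00794 in both, the smallest it can give.

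Nags, whose product activates CPS1, was the only one of the 8 called lower in each of the 3 experiments by edgeR with TMM. The Cre- mice of HFCFD2W had 43.04, 60.56, 49.08, 41.39 and 48.25 CPM and the Cebpa ΔHep mice 34.55, 37.14, 30.54, 30.28 and 29.55 CPM. The highest knockout lay under the lowest control, and the log2 fold change was -0.58 ± 0.11 (adjusted p = 0.00306). In HFCFD8W+T10D the values were 50.99, 38.81, 49.01, 50.29 and 46.04 CPM in Cre- mice and 41.59, 28.79, 31.2, 38.67 and 34.29 CPM in knockouts, with the Cre- mouse of replicate 2 inside the knockouts' range. The fold change of -0.42 ± 0.12 (log2, adjusted p = 0.0268) lost its call when any 1 of 5 libraries was left out: Cre- replicates 1, 3 and 4 and knockout replicates 2 and 3, with adjusted p from 0.0522 to 0.0716. In HFCFD12W+T10W, 35.88, 37.95, 37.8, 38.92 and 39.89 CPM stood against 22.84, 20.51, 20.44, 23.99 and 26.14 CPM. No mouse overlapped, and the level was 61.6% of the control level (log2 fold change -0.70 ± 0.08, adjusted p = 1.44e-05).

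Otc, which makes citrulline, went in opposite directions. The Cre- mice of HFCFD2W had 554.6, 488.9, 526.5, 550.2 and 523.1 CPM and the Cebpa ΔHep mice 643.1, 685.1, 563.1, 648.2 and 727.9 CPM. Each knockout was above each control, by a log2 fold change of 0.31 ± 0.08 (adjusted p = 0.0208), a call that was lost without Cre- replicate 2 (adjusted p = 0.0602) or knockout replicate 6 (0.0553). In HFCFD8W+T10D, 422.7, 482.5, 410.7, 467.3 and 428 CPM in Cre- mice stood beside 237.1, 300.7, 291.3, 476.7 and 422.9 CPM in knockouts. There 3 knockouts lay below the controls and 2 among them, and the log2 fold change of -0.34 ± 0.17 did not pass (adjusted p = 0.2). Without knockout replicate 4 it was -0.49 (adjusted p = 0.0411). In HFCFD12W+T10W, 428.2, 418.9, 440.4, 395.1 and 383.2 CPM stood against 270.8, 245.4, 255.2, 270.8 and 199.7 CPM. The groups were separate, and the level was 62% of the control level (log2 fold change -0.69 ± 0.09, adjusted p = 4.79e-05).

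The carriers of the inner mitochondrial membrane were called in different experiments and were not tested against each other. Slc25a15, the ornithine carrier, had 297.4 to 340.6 CPM in Cre- and 253.7 to 317.2 CPM in knockout mice of HFCFD2W. The ranges were 284.2 to 396.1 and 212.3 to 290.5 CPM in HFCFD8W+T10D, and 272.4 to 356 and 207.8 to 366.7 CPM in HFCFD12W+T10W. The ranges overlapped in each experiment, in HFCFD8W+T10D through 1 mouse on each side. It was called lower there alone (log2 fold change -0.53 ± 0.12, adjusted p = 0.0124). Its genotype difference did not pass as differing between any 2 experiments (edgeR interaction, adjusted p from 0.138 to 0.729). In HFCFD12W+T10W the knockouts were uneven, with 3 mice at 207.8 to 237.9 CPM and replicates 4 and 5 at 366.7 and 353.4 CPM, and the log2 fold change was -0.17 ± 0.16 (adjusted p = 0.383, 95% interval -0.48 to 0.14).

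Slc25a13, citrin, had 266.4 to 291.5 CPM in Cre- and 273.4 to 337.3 CPM in knockout mice of HFCFD2W, and 180.1 to 244 and 155.7 to 226.8 CPM in HFCFD8W+T10D. Both pairs of ranges overlapped, and neither log2 fold change passed (0.16 ± 0.08, adjusted p = 0.181, and -0.12 ± 0.13, adjusted p = 0.581). In HFCFD12W+T10W, 203.8 to 241.5 CPM stood above 149.4 to 198 CPM with no overlap (-0.36 ± 0.08, adjusted p = 0.00352). This last call did not hold on the TPM scale (log2 difference 0.02, adjusted p = 0.83) or with hepatocyte scaling (0.13, adjusted p = 0.251).

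Ass1, the first cytosolic enzyme, had overlapping groups in each experiment and was called in none. Its ranges were 2802 to 3790 CPM in Cre- and 3549 to 4453 CPM in knockout mice of HFCFD2W. In HFCFD8W+T10D they were 2480 to 3826 and 2358 to 3751 CPM, and in HFCFD12W+T10W 2450 to 3777 and 1924 to 2936 CPM. In that order the log2 fold changes were 0.25 ± 0.11 (adjusted p = 0.134, 95% interval 0.04 to 0.46), -0.14 ± 0.17 (0.626, -0.49 to 0.20) and -0.38 ± 0.15 (0.0538, -0.68 to -0.08). The last of these passed when any 1 of 4 libraries was left out, with adjusted p down to 0.0159 without Cre- replicate 4. On the TPM scale the means in HFCFD12W+T10W were 2583 ± 484 in Cre- and 2547 ± 469 in knockout mice.

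For Asl, which releases arginine and fumarate, both genotypes varied between experiments. In HFCFD2W the Cre- mice had 419.7, 374.2, 385.1, 434.5 and 411.3 CPM and the Cebpa ΔHep mice 340.1, 422.7, 345.5, 389.7 and 464.5 CPM. The groups overlapped (log2 fold change -0.04 ± 0.09, adjusted p = 0.796). In HFCFD8W+T10D the Cre- mice had 712.8, 780.5, 641.2, 713.7 and 659.8 CPM and the knockouts 387.2, 321.1, 416.7, 646 and 368 CPM. Apart from knockout replicate 4 the groups were separate, and the level was 61.5% of the control level (log2 fold change -0.70 ± 0.17, adjusted p = 0.0148), or -0.90 on the log2 scale without that mouse. In HFCFD12W+T10W, 543.4, 455.7, 642.3, 462.9 and 588.4 CPM stood against 182.3, 194.2, 220.2, 236.6 and 241.1 CPM. Each knockout lay far below each control, at 41.1% of the control level (log2 fold change -1.28 ± 0.12, adjusted p = 2.76e-06). The transcript length that RSEM assigned to Asl, a readout of its mix of isoforms, varied more than that of most members, from 1488.9 to 1659.5 bases in these knockouts and from 1481.3 to 1578.4 bases in their controls.

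Arg1, which releases urea, had 982.8, 823.4, 937.1, 916.2 and 921.5 CPM in the Cre- mice of HFCFD2W and 770.5, 869, 688.6, 851.6 and 780.8 CPM in the Cebpa ΔHep mice. The groups overlapped, with a log2 fold change of -0.21 ± 0.09 (adjusted p = 0.114). In HFCFD8W+T10D, 758.6, 914, 720.5, 821.4 and 782.4 CPM stood against 550.7, 649.4, 635.4, 582.7 and 498.7 CPM. These groups were separate (log2 fold change -0.44 ± 0.12, adjusted p = 0.0262), and the call was lost without any 1 of 3 libraries, Cre- replicates 2 and 4 and knockout replicate 1, with adjusted p from 0.0542 to 0.0613. In HFCFD12W+T10W, 945.4, 767, 924.4, 903.5 and 868.7 CPM stood against 431.7, 332.6, 455.3, 454.3 and 421.8 CPM. The highest knockout was well below the lowest control, at 49% of the control level (log2 fold change -1.03 ± 0.10, adjusted p = 4.46e-06).

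**Figure D4:**
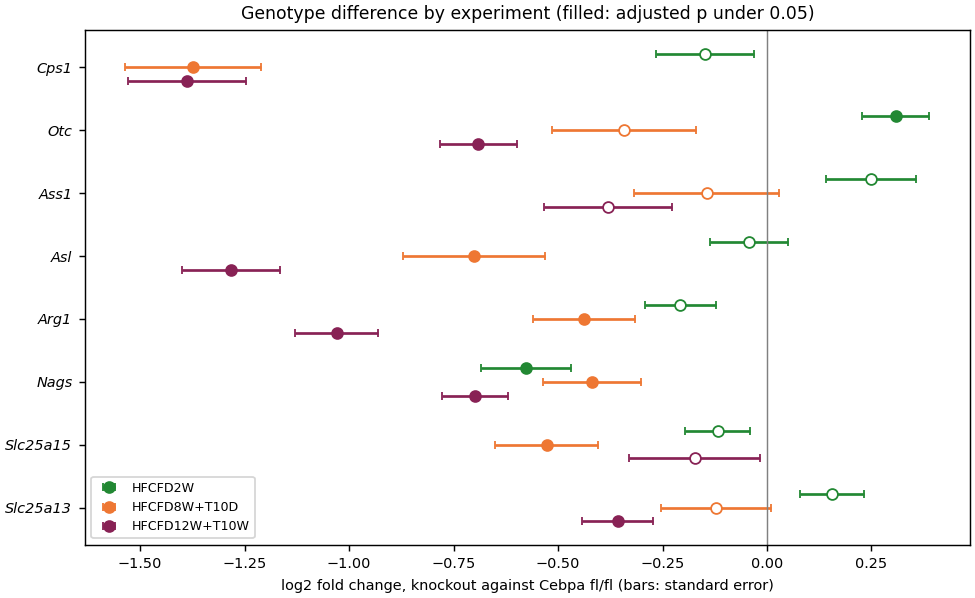
Log2 fold change, knockout against Cebpa fl/fl, with its standard error (horizontal axis) for the 8 urea cycle genes in the 3 experiments (green HFCFD2W, orange HFCFD8W+T10D, purple HFCFD12W+T10W); filled points passed an adjusted p of 0.05. Filled points number 2 in HFCFD2W, on both sides of 0, then 5 and 6, all below 0.

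Counting mice by CPM, all 5 knockouts lay below all 5 controls for 1, 2 and 6 of the 8 genes in the 3 experiments, against 6.13%, 5.5% and 19.5% of all genes. They lay above for 1 gene in HFCFD2W (6.33% of all genes). In TPM the genotypes instead overlapped for Nags and Otc in HFCFD2W, Arg1 in HFCFD8W+T10D, and Nags and Slc25a13 in HFCFD12W+T10W. For Nags the highest knockout passed the lowest control narrowly, at 23.13 against 22.69 and 26.28 against 25.88 TPM. Asl separated in TPM in HFCFD8W+T10D, with knockouts up to 471.2 and controls from 521. Cps1 in both tamoxifen experiments, and Otc, Asl and Arg1 in HFCFD12W+T10W, stayed separate.

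Whether the genotype difference itself changed between experiments was tested as an interaction in one fit of the 6 groups. Of the 8 genes, 3 had a lower genotype difference in HFCFD8W+T10D than in HFCFD2W (6.79% of all genes): Cps1 by -1.24 ± 0.20 (log2, SE, adjusted p = 0.000143), Otc by -0.66 ± 0.18 (0.0153) and Asl by -0.67 ± 0.19 (0.0231). Between HFCFD12W+T10W and HFCFD2W, 6 were lower (17.3% of all genes): Cps1 by -1.28, Otc by -1.04, Ass1 by -0.67, Asl by -1.28, Arg1 by -0.86 and Slc25a13 by -0.55, with adjusted p from 2.18e-05 to 0.0164. Between the tamoxifen experiments 2 were lower (5.49% of all genes), Asl by -0.61 ± 0.19 (adjusted p = 0.0395) and Arg1 by -0.62 ± 0.14 (0.00489). For Cps1 this difference did not pass, at -0.04 ± 0.20 (adjusted p = 0.923, 95% interval -0.43 to 0.34). Nags, called lower in each experiment, had no interaction that passed, with differences of 0.15, -0.16 and -0.31 in the same order of pairs (adjusted p from 0.187 to 0.578). In all 3 contrasts 0 of the 8 genes were called higher by edgeR (4.45%, 13.4% and 4.97% of all genes). The call for Asl between the tamoxifen experiments was lost without any 1 of 12 libraries (adjusted p up to 0.107) and with 3 of the other settings that kept that of Arg1, and both calls were lost on the TPM scale (adjusted p = 0.07 and 0.102). With hepatocyte scaling, which moved the median interaction of all genes to 0.376, 0.523 and 0.156 in the order of the contrasts above, the counts of 3, 6 and 2 became 1, 3 and 0. Cps1 was the 1 still called in the first contrast, and Cps1, Otc and Asl were the 3 in the second. Arg1 and Slc25a13, not called in the first contrast, turned sign there with that scaling. On the TPM scale Ass1 and Slc25a13 lost their calls in the second contrast.

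The control livers were compared between experiments in the same fit. Asl was 1.73-fold higher in the Cre- mice of HFCFD8W+T10D than in those of HFCFD2W (log2 difference 0.79 ± 0.14, adjusted p = 3.68e-05) and higher in HFCFD12W+T10W than in HFCFD2W (0.41 ± 0.14, adjusted p = 0.0181), with no mouse overlapping in either pair (13.5% and 12.2% of all genes were higher without overlap). Slc25a13 was lower in both later groups, by -0.43 ± 0.10 (adjusted p = 0.00125) and -0.29 ± 0.10 (0.0232) on the log2 scale. These made 1 gene higher and 1 lower of 8 in the first contrast, where 43.6% of all genes differed. In the second, where 39.1% of all genes differed, 1 was higher and 4 lower, with Cps1 (-0.35), Otc (-0.36) and Nags (-0.35) beside Slc25a13. On the TPM scale the second contrast instead had 3 higher and 0 lower, and those 4 signs turned. Between the Cre- mice of HFCFD12W+T10W and HFCFD8W+T10D, 0 of the 8 were called by edgeR (11.4% of all genes), 2 had an unadjusted p under 0.05 and 2 were called by DESeq2.

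The balance within the cycle was read from each gene's log2 CPM relative to the mean of the 8 in the same library, a measure in which a library's scale factor cancels and which was chosen after the values were seen. It is relative only: where the mean of the 8 is lower in the knockout, a gene lower by less than that mean stands higher. In HFCFD2W, Otc was higher in each knockout by a mean of 0.35 and Nags lower in each by -0.52 (log2), the others overlapping. In both tamoxifen experiments Cps1 was lower in each knockout, by -0.87 and -0.64, and Slc25a13 was higher in each, by 0.39 and 0.40, although its own log2 fold changes were -0.12 and -0.36. Ass1 was higher by 0.37 in HFCFD8W+T10D with no overlap, and by 0.37 in HFCFD12W+T10W with overlap. In HFCFD12W+T10W Asl was also lower in each knockout, by -0.52, and Slc25a15 higher in each, by 0.55, with a log2 fold change of its own of -0.17. The 8 values of a library are tied through their common mean, so a low value for 1 gene raises the others. No share over all genes was computed for this measure. Of 24 comparisons of the kind 9 were separations, which are not independent and are given as a description with no test. These separations stayed in the same direction with TPM in place of CPM (from -0.87 to 0.56), and with any 1 mouse left out.

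On the CPM scale, single mice stood apart across several members at once. In HFCFD8W+T10D, knockout replicate 4 was the highest of its group for 6 of the 8 genes, and its 15 hepatocyte markers summed to 170300 CPM against 104600 to 137400 CPM in the other 4 knockouts. Its Cebpa level, 12.93 CPM, was the second lowest of the group, and its periportal markers summed to 8163 CPM, above the 2787 to 4760 CPM of the other knockouts. Without that mouse 6 of the 8 genes were called lower, Otc being added to the 5. Among the controls of that experiment, replicate 2 was highest for 7 genes and replicate 3 lowest for 6. These places depended on the scale. In TPM, knockout replicate 4 was the highest of its group for Asl (471.2) but the lowest for Arg1 (440) and Slc25a13 (79.79). Control replicate 2 was the lowest of its group in TPM for Cps1 (646.6), Otc (202.8), Asl (521) and Nags (21.42). In HFCFD12W+T10W, knockout replicate 4 was the highest of its group in CPM, or level with the highest, for 5 genes.

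The livers differed in more than the cycle, and in whole liver fewer hepatocytes and less mRNA per hepatocyte cannot be told apart. Of the 15 hepatocyte markers, 2, 2 and 8 were called lower and 1, 1 and 0 higher in the 3 experiments, with medians of 0.00, -0.29 and -0.57 on the log2 scale. For these and the marker counts below, the shares of all genes were 8.09%, 6.85% and 23.8% lower and 8.6%, 10.3% and 27.4% higher. In HFCFD12W+T10W their sum was 129300 to 161700 CPM in Cre- and 89840 to 98430 CPM in knockout mice. Alb alone stood at 77550 ± 9125 against 35080 ± 2923 CPM in that experiment, so the sum does not weigh the 15 markers alike. There all 8 stellate cell markers were called higher, summing to 313.2 to 400.5 against 1218 to 1530 CPM, as were 7 of 10 macrophage markers, with 1 lower (258.3 to 694.1 against 674.4 to 855.6 CPM), and all 6 cholangiocyte markers (41.35 to 56.48 against 735.7 to 1036 CPM). In HFCFD8W+T10D, 2 of 8 stellate, 8 of 10 macrophage and 3 of 5 tested cholangiocyte markers were higher, and in HFCFD2W 0 of 8, 4 of 8 and 1 of 2. Spp1 made up most of the cholangiocyte sum, at 46 ± 6.22 against 801 ± 136 CPM in HFCFD12W+T10W. The paper reports that hepatocytes lacking CEBPA induce Spp1, so the sum does not measure cholangiocytes alone. Epcam there was at 0.82 ± 0.27 against 17.6 ± 4.9 CPM. The 1 of 2 called in HFCFD2W was Spp1, and Sox9 was not called (adjusted p = 0.666). Endothelial markers had 0, 1 and 2 of 6 lower and 0 higher, and leukocyte markers 0 of 2, 1 of 5 and 4 of 5 higher. No defining marker of these lists was at 0 in all 5 mice of any group. Their part in the urea cycle differences was not tested.

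Markers of the lobular zones, with no urea cycle gene among them, were counted in the same way. Of 10 periportal markers, where the cycle is strongest, 3, 2 and 1 were higher and 2, 1 and 7 lower in the 3 experiments, with medians of 0.16, 0.13 and -0.95 (log2), where 8.6%, 10.3% and 27.4% of all genes were higher and 8.09%, 6.85% and 23.8% lower. Their sum was 5846 to 7312 CPM in Cre- and 9058 to 11550 CPM in knockout mice of HFCFD2W, 2921 to 4436 against 2787 to 8163 CPM in HFCFD8W+T10D, where the groups overlapped, and 5519 to 7109 against 3026 to 4433 CPM in HFCFD12W+T10W. Pck1, of gluconeogenesis, was 1.35 higher in HFCFD2W (log2, adjusted p = 0.00039) and lower by -0.55 in HFCFD12W+T10W (adjusted p = 0.00342), with 0.20 in HFCFD8W+T10D (adjusted p = 0.721). In HFCFD2W it stood at 1404 ± 462 against 3569 ± 433 CPM, a large part of the difference between the periportal sums there. Cdh1, the adhesion protein E-cadherin, which cholangiocytes also make, was the 1 higher in HFCFD12W+T10W, by 3.75 (adjusted p = 8.32e-09). Hal was lower in all 3 experiments, with its values among the genes that bring nitrogen. Of 10 pericentral markers, 4, 3 and 5 were lower, and 1 was higher in each experiment, the ammonia transporter Rhbg, whose values follow.

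Genes that bring nitrogen to the cycle formed a list of 19, of which 5, 4 and 13 were lower and 2, 1 and 2 higher in the 3 experiments. The shares of all genes were 8.09%, 6.85% and 23.8% lower and 8.6%, 10.3% and 27.4% higher. Got1, the cytosolic aspartate aminotransferase, was lower in all 3 (log2 fold changes -1.31 ± 0.19, -1.33 ± 0.31 and -1.04 ± 0.15, with adjusted p from 8.55e-05 to 0.0116). Hal, which frees ammonia from histidine, was lower by -1.12 ± 0.13, -0.83 ± 0.26 and -2.01 ± 0.27 (adjusted p up to 0.0451). The opposite was seen for Rhbg, at 21.2 against 33.6, 15 against 40.7 and 12.7 against 45.9 CPM, or 0.67, 1.45 and 1.89 higher on the log2 scale (adjusted p = 0.0066, 0.000291 and 1.32e-06). Car5a, the mitochondrial carbonic anhydrase that supplies bicarbonate to CPS1, and Sds, serine dehydratase, passed only in HFCFD12W+T10W, by -1.07 ± 0.13 and -1.15 ± 0.15 (adjusted p = 2.11e-05 and 3.29e-05), and whether that differed from the other experiments was not tested.

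Genes that use ornithine and arginine did not move in 1 direction. Of 12 listed, 10, 10 and 11 were tested in the 3 experiments, with 1, 1 and 5 higher and 2, 2 and 4 lower. Of all genes tested, 8.6%, 10.3% and 27.4% were higher and 8.09%, 6.85% and 23.8% lower. Oat, ornithine aminotransferase, fell from 646.8 ± 94.1 to 194.1 ± 46.1 CPM (SD, n = 5) in HFCFD2W, and its log2 fold changes were -1.73, -1.26 and -1.27 (adjusted p = 2.55e-05, 0.00526 and 0.00017). Slc7a2, a cationic amino acid transporter of hepatocytes, was lower by -0.94 and -0.86 in the tamoxifen experiments (adjusted p = 0.0354 and 0.000182), and Gatm, which uses arginine for creatine synthesis, was higher by 0.95 and 1.18 (0.0395 and 0.000172). Slc7a1, a transporter of the same family, reached 3.37 ± 0.62 CPM in the knockouts of HFCFD12W+T10W from 0.76 ± 0.48 CPM (log2 fold change 2.17, adjusted p = 0.000134).

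**Figure D5:**
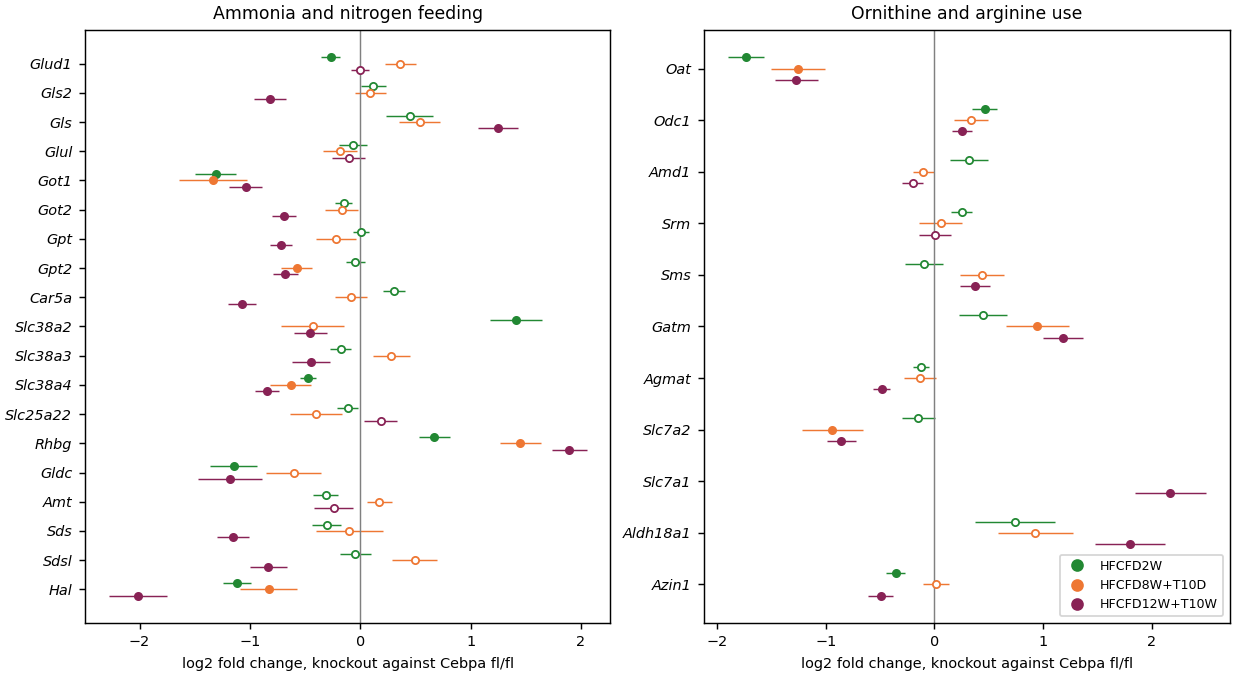
Log2 fold change with its standard error, knockout against Cebpa fl/fl, for genes that feed nitrogen to the cycle (left) and that use ornithine or arginine (right) in the 3 experiments (green HFCFD2W, orange HFCFD8W+T10D, purple HFCFD12W+T10W); filled points passed an adjusted p of 0.05. Got1, Hal and Oat lie below 0 and Rhbg above 0 in all 3 experiments.

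Isozymes and related carriers of the members were sparse: of 4 listed, Arg2 and Slc25a2 were too low to test. Slc25a12, the other aspartate-glutamate carrier, was higher in HFCFD2W (16.2 against 20.5 CPM, log2 fold change 0.34, adjusted p = 0.0296), and Slc25a29, a carrier of basic amino acids, was lower in HFCFD12W+T10W (-1.32, adjusted p = 0.000231). Of the tested channels, Aqp9, which passes urea and glycerol, was lower in HFCFD2W (-0.49, adjusted p = 0.0022) and Aqp8 higher in HFCFD8W+T10D (0.93, adjusted p = 0.0231). Of the 3 genes whose proteins act on urea cycle enzymes, Sirt3, a mitochondrial deacetylase, was lower in both tamoxifen experiments (-0.48 and -1.06, adjusted p = 0.0286 and 7.64e-07), Sirt5 higher in HFCFD8W+T10D (0.61, adjusted p = 0.0155) and Lonp1 higher in HFCFD2W (0.30, adjusted p = 0.019).

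Transcription factors and hormone receptors known to act on the cycle, Cebpa itself among them, numbered 17, 18 and 18 tested in the 3 experiments, of which edgeR called 4, 0 and 3 higher and 2, 4 and 11 lower. Over all genes, 8.6%, 10.3% and 27.4% were called higher and 8.09%, 6.85% and 23.8% lower. Hnf4a, a nuclear receptor of hepatocyte identity, was 0.14 ± 0.08 (adjusted p = 0.238) in HFCFD2W and lower by -0.56 ± 0.13 and -0.96 ± 0.08 in the later experiments (0.0104 and 2.21e-06). Ppara, the fatty acid receptor, was -0.17 ± 0.14 (adjusted p = 0.43), then lower by -0.60 ± 0.12 and -0.93 ± 0.11 (0.0058 and 2.2e-05). Cebpb, another member of the C/EBP family, was higher by 1.11 ± 0.15 in HFCFD2W (adjusted p = 0.000394), at 0.07 ± 0.14 in HFCFD8W+T10D (0.794) and lower by -0.44 ± 0.12 in HFCFD12W+T10W (0.00751). The values of this and the other gene lists are given with TMM alone. Several member calls of like size were lost under other scalings, and whether these hold is not given here.

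Among 12964 genes, those whose pattern over the 6 group means was most like a member's were found by the root-mean-square difference of centred log2 CPM. For Otc this was Fabp1, the liver fatty acid binding protein, with a difference of 0.0137 against a range of 1.40 over the groups for Otc itself. For Cps1 it was Serpina1a, an alpha-1 antitrypsin gene (0.10 against a range of 1.80), followed by Serpinf1 (0.14). Ass1 was nearest to its copy Gm5424 (0.02), with which it shares reads, and then to Tmem259 (0.04). Nags was nearest to Nr1h4, the bile acid receptor FXR (0.08), Arg1 to Macrod1 (0.04), Asl to 1700055D18Rik (0.15), Slc25a15 to 0610010F05Rik (0.04) and Slc25a13 to Fars2 (0.03). These are descriptions over 6 group means that share libraries and scaling.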

How the data were processed

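Liver RNA of 30 mice was sequenced from stranded poly(A) libraries. Per the submitters' processing notes, which name no roles, the tools were Trimmomatic 0.36, STAR 2.5.1, Picard 1.84, RSEM 1.2.22 and DESeq2, with the mm10 build. The deposited values used were the authors' expected counts per gene and TPM, both written by RSEM. Gene IDs matched GENCODE M21 (55450 of 55450). Expected counts were rounded to whole numbers and tested in edgeR 4.0.16 (R 4.3.3) with filterByExpr, TMM and the quasi-likelihood F test, each experiment alone for genotype and the 6 groups jointly for interactions and Cre- contrasts. Benjamini-Hochberg adjustment ran over all genes tested, and genes were called at an adjusted p under 0.05. CPM were scaled by TMM over all libraries, and log2 CPM used a prior count of 2. TPM were tested as log2(TPM + 1) with limma 3.58.1, and DESeq2 1.42.0 was a further alternative. Exact permutation tests were two-sided. The scripts were tested on simulated data. Groups and replicate numbers came from the labels; each library is 1 mouse. The 8 members and the gene lists were chosen with earlier results of these data known. All members were named. Of each other list, counts were given, and only the 3 genes with the smallest adjusted p in an experiment and the most abundant gene could be named, plus the 2 genes most like each member and Cebpa. Library totals were 7996123 to 10257347 counts, and the scarcest member, Nags, had 220 to 495 counts per library.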

Additional observations from a re-analysis of the deposited data

Results flagged for a closer look

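In 48 groups of 5 mice (8 genes, 6 groups), 2 held a mouse far from the other 4 by Dixon's criterion for 5 samples (a gap over 0.71 of the range), where chance gives about 1 in 20. Ass1 stood at 3751 CPM in knockout replicate 4 of HFCFD8W+T10D, and the next highest mouse had 2598 CPM. On the TPM scale knockout replicate 4 was within its group, at 2404 in a range of 1898 to 2791 TPM. Its count for Ass1, 31627, was close to the 31586 of knockout replicate 2. Arg1 stood at 332.6 CPM in knockout replicate 2 of HFCFD12W+T10W, and the next lowest had 421.8 CPM. In TPM that knockout was again the lowest for Arg1, at 435.3 against 535.3 TPM for the next.

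The genotype difference in log2 fold change differed between experiments, by the tested interaction, for the following genes. From HFCFD2W to HFCFD8W+T10D it was lower by -1.24 for Cps1, -0.66 for Otc and -0.67 for Asl. From HFCFD2W to HFCFD12W+T10W it was lower by -1.28 for Cps1, -1.04 for Otc, -0.67 for Ass1, -1.28 for Asl, -0.86 for Arg1 and -0.55 for Slc25a13. From HFCFD8W+T10D to HFCFD12W+T10W it was lower by -0.61 for Asl and -0.62 for Arg1. HFCFD2W differs from the others in Cre line, diet time, tamoxifen and batch of mice, and the tamoxifen experiments differ from each other in diet time, tamoxifen time and batch of mice; within each comparison these cannot be told apart.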

How the results depend on the processing

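Counts of the 8 genes called by genotype (2, 5 and 6 in HFCFD2W, HFCFD8W+T10D and HFCFD12W+T10W) became 1, 2 and 3 with hepatocyte scaling and 4 (3 higher, 1 lower), 2 and 5 on log2(TPM + 1), which also changed the test to limma. At an adjusted p under 0.01 the first 2 were 1 and 1, and with a fold change over 2 the counts were 0, 1 and 3. The joint fit gave 1 in HFCFD2W. Interaction counts (3, 6 and 2 for HFCFD8W+T10D minus HFCFD2W, HFCFD12W+T10W minus HFCFD2W and HFCFD12W+T10W minus HFCFD8W+T10D) became 1, 3 and 0 with hepatocyte scaling; the last became 0 on TPM, 1 with upper quartile normalization and 1 with no low-count filter, and at adjusted p under 0.01 the first and last were 1 and 1. Counts between Cre- groups (2, 5 and 0 in the same order) became 1 and 1 in the first 2 with hepatocyte scaling; the second became 2 with no filter, 3 on TPM and 1 at adjusted p under 0.01; the last became 2 with upper quartile normalization, 1 with RLE, 2 with DESeq2 and 1 on TPM.

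Signs that turned were the following (log2). On TPM, Asl and Slc25a15 were 0.082 and 0.001 in HFCFD2W, Ass1 and Slc25a13 0.054 and 0.083 in HFCFD8W+T10D, Slc25a15 and Slc25a13 0.16 and 0.02 in HFCFD12W+T10W. With hepatocyte scaling, Ass1 and Slc25a13 were 0.13 and 0.13 in HFCFD8W+T10D, and Ass1, Slc25a15 and Slc25a13 0.091, 0.304 and 0.125 in HFCFD12W+T10W. Of interactions, Arg1 and Slc25a13 (HFCFD8W+T10D minus HFCFD2W) were 0.137 and 0.049 with hepatocyte scaling, and Cps1 between the tamoxifen experiments was 0.032 (upper quartile), 0.14 (hepatocyte) and 0.159 (TPM). Between Cre- groups (HFCFD12W+T10W minus HFCFD2W) Cps1, Otc, Nags and Slc25a13 were 0.033, 0.038, 0.042 and 0.095 on TPM. The cause was not tested beyond the shift of the median of all genes given above.

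Leaving out 1 mouse at a time, genotype counts ran from 1 to 2, 3 to 6 and 6 to 7, the 3 without Cre- replicate 4 of HFCFD8W+T10D. The count of 1 in HFCFD2W came without Cre- replicate 2 or knockout replicate 6. Interaction counts ran from 2 to 3, 6 to 6 and 1 to 2, the last 1 without any of Cre- replicates 1, 3, 4 and 5 or knockout replicates 3 and 4 of HFCFD8W+T10D, or Cre- replicates 1, 3 and 5 or knockout replicates 1, 2 and 3 of HFCFD12W+T10W. Counts between Cre- groups ran from 2 to 3, 2 to 5 and 0 to 2. The second was 2 without Cre- replicate 5 of HFCFD12W+T10W or 4 of HFCFD2W, and 3 without Cre- replicates 1, 2 or 4 of HFCFD12W+T10W, 1 of HFCFD2W or knockout replicate 1 of HFCFD8W+T10D. The third was 2 without knockout replicate 2 of HFCFD8W+T10D and 1 without any of 8 other libraries. Signs turned for Asl in HFCFD2W (-0.11 to 0.005) and for the Cps1 interaction between the tamoxifen experiments (-0.15 to 0.08). Deviations of same-numbered mice had correlations from -0.23 to 0.18 over the 2000 most variable genes. No pairing by number was seen, though so few pairs cannot exclude a weak one. With a replicate block the count was 1 in HFCFD2W and 1 for the interaction between the tamoxifen experiments. No other count changed by over 1.5 times with it. In HFCFD2W the block fit also left out Cre- replicate 1 and knockout replicate 6, whose numbers the other genotype lacks.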
